A study of Mus musculus with 16 samples.

Results

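The chemokine and chemokine receptor genes of the mouse liver were measured on 2-colour Agilent oligonucleotide arrays. They were chosen by name alone, as every non-control probe whose gene name on the array was Ccl, Cxcl, Ccr or Cxcr followed by a number, or Cx3cl1 or Cx3cr1. The rule found 51 genes, 34 ligands and 17 receptors, of the 28090 gene names on the array, and these carried 65 of its 41174 probes. A probe entered the tests where 4 or more of the 24 array channels gave a signal well above background. This left 37 of the 51 genes (25 ligands and 12 receptors) among 16427 genes tested.

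Livers came from 4 genotypes. The double knockout (DKO, Atg7F/F:Mx1-Cre:Nrf2-/-) lacks the transcription factor Nrf2 and carries the conditional Atg7 allele with Mx1-Cre. Atg7 cKO (Atg7F/F:Mx1-Cre) carries the conditional allele and Mx1-Cre only, Nrf2 KO (Nrf2-/-) lacks Nrf2 only, and the last genotype is wild type (WT). Atg7 is an enzyme that autophagy needs, and Nrf2 activates antioxidant genes. Mx1-Cre is switched on by pIpC, a synthetic double-stranded RNA that itself induces interferon, and it acts outside hepatocytes as well. By the design text, mice were 8 weeks old at the pIpC injection, the controls were injected too, and livers were taken 4 weeks later, whereas the sample labels speak of 4 weeks of pIpC treatment. The labels give no animal numbers, so that the p-values measure the spread between experiments, part of which may be technical.

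Each of 8 experiments set a pair of genotypes on 2 arrays with the dyes swapped, and the mean of its 2 arrays counts as 1 replicate. DKO was set against WT in experiments 3 and 6, Atg7 cKO against WT in 2 and 5, Nrf2 KO against WT in 1 and 4, and DKO directly against Atg7 cKO in 7 and 8. Every comparison therefore has n = 2 experiments. The labels do not say whether wild-type RNA was shared between arrays, so the comparisons with WT are given side by side. Experiments 1 to 3 and 4 to 6 differed in sex-linked transcripts: Xist was well above background in 0 of 12 channels in experiments 1 to 3 and in 12 of 12 in experiments 4 to 6, and Ddx3y and Eif2s3y the other way round. Each comparison with WT holds 1 experiment of either set, so the values per experiment are also the values within each set. The Nfe2l2 gene (Nrf2) had log2 ratios of -3.31 and -4.10 in DKO and of -3.78 and -3.97 in Nrf2 KO, against 1.27 and 1.13 in Atg7 cKO. Another of its probes was also below WT, at -2.82 and -3.25 in DKO and at -3.04 and -3.05 in Nrf2 KO, whereas the remaining one stood at -0.06 and 0.18 in DKO and at -0.09 and -0.03 in Nrf2 KO. On the brighter of its 2 probes Atg7 stood at -0.73 and -0.73 in DKO and at -0.79 and -0.82 in Atg7 cKO, and the other probe at -0.16 to 0.01 in these experiments.

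Chemokines are small secreted proteins that guide the migration of leukocytes by binding receptors coupled to G proteins. They are grouped by the spacing of their first cysteines into CC, CXC and CX3C ligands, and their receptors are named by the group they bind. In the liver they are made by hepatocytes, Kupffer cells, stellate cells and endothelial cells, and are known for drawing in monocytes, neutrophils and T cells after injury or infection.

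More chemokine genes were measurable in the livers that carried the conditional Atg7 allele with Mx1-Cre. A gene was counted as above background in a genotype if a probe of it was well above background on every array of that genotype. This held for 34 of the 51 genes in DKO and 30 in Atg7 cKO (4 arrays each), for 23 in Nrf2 KO (4 arrays) and for 19 in WT (12 arrays, so the criterion was harder to meet). Conversely, 12 genes in DKO, 14 in Atg7 cKO, 20 in Nrf2 KO and 17 in WT were well above background on no array. The same count was not made over all genes on the array. Single channels had from 43.42% to 57.19% of all spots well above background. Whether the counts are particular to chemokine genes was therefore not tested. Cxcl2, a neutrophil attractant, was above background on all 4 DKO arrays and on none of Atg7 cKO, Nrf2 KO or WT. Cxcl5, of the same group, and Ccr7, the receptor that leads dendritic cells and T cells to lymph nodes, were above background on all DKO arrays, on 3 of the 4 Atg7 cKO arrays and on no array of Nrf2 KO or WT. Cx3cr1, the fractalkine receptor of monocytes and macrophages, was above background on all arrays of DKO and Atg7 cKO and on none of Nrf2 KO or WT. This held for 1 of its 2 probes, and the other was above background on no array. Ccr1l1 went the other way, above background on all 4 Nrf2 KO arrays, 2 of 4 Atg7 cKO arrays, 0 of 4 DKO arrays and 4 of 12 WT arrays.

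**Figure D1:**
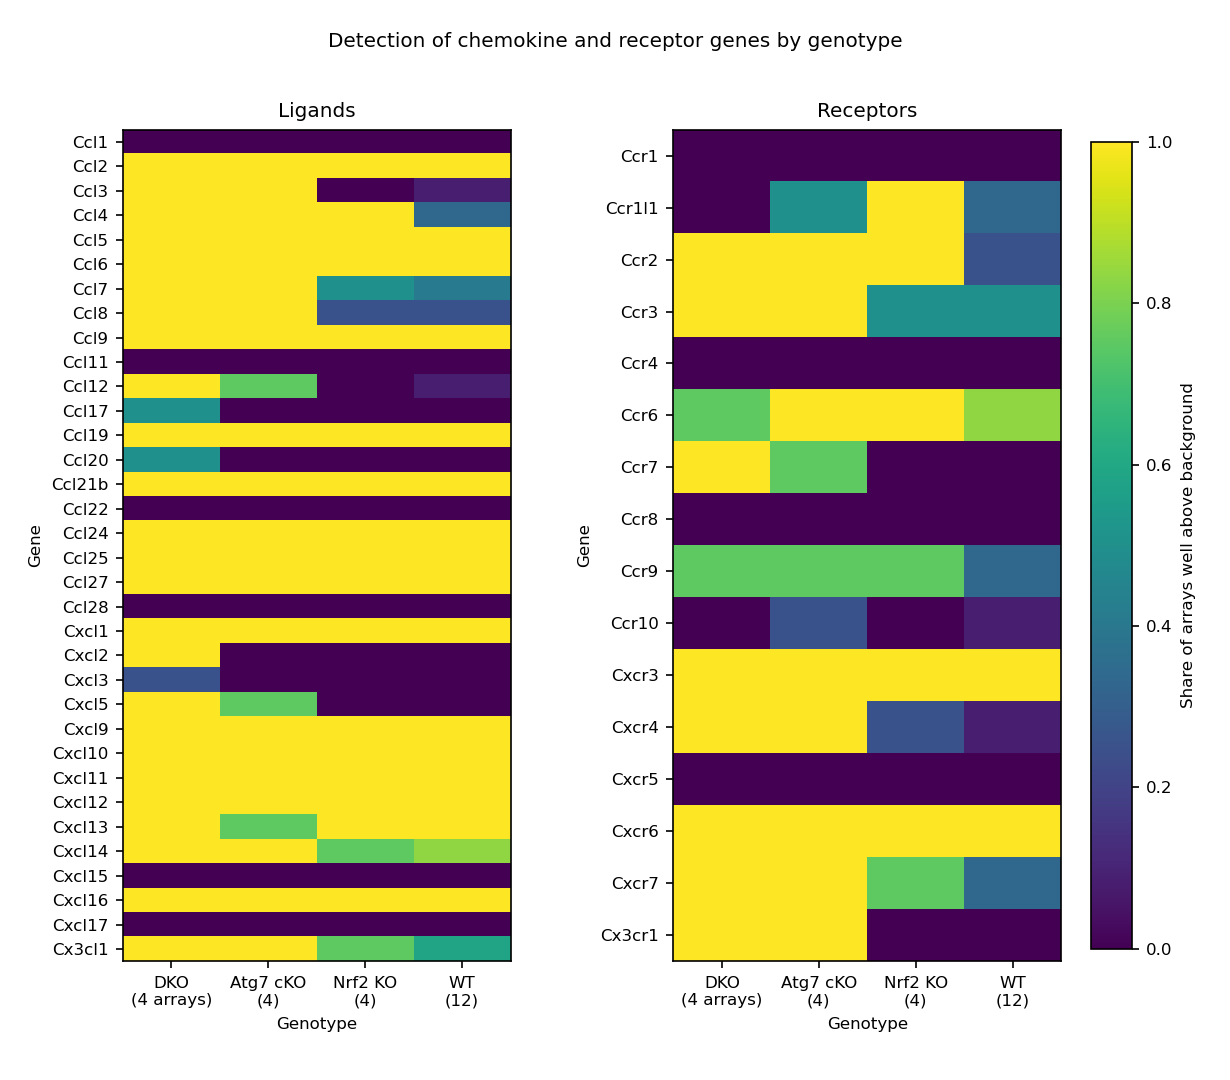
Share of arrays on which each of 50 genes (rows, ligands left and receptors right) was well above background, by the best probe of the gene, in DKO, Atg7 cKO, Nrf2 KO (4 arrays each) and WT (12 arrays). Cxcl2 is above background on DKO arrays only, and Cxcl5, Ccr7 and Cx3cr1 on arrays of DKO and Atg7 cKO only.

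The 14 genes without a kept probe were Ccl1, Ccl11, Ccl17, Ccl20, Ccl22, Ccl28, Cxcl3, Cxcl15, Cxcl17, Ccr1, Ccr4, Ccr8, Ccr10 and Cxcr5. Of these, Ccl17 and Ccl20 were above background on 2 of the 4 DKO arrays, Cxcl3 on 1 DKO array, and Ccr10 on 1 Atg7 cKO array and 1 WT array. The other 10 were below background on every array. The 9 genes Ccl3, Ccl8, Ccl12, Cxcl2, Cxcl5, Ccr2, Ccr7, Cxcr4 and Cx3cr1 passed only because knockout channels were counted, since fewer than 4 WT channels were above background. Counts over the 37 genes are therefore set beside counts over the 28 genes that WT channels alone would have kept, a filter added after the values were known. The 28 genes include Ccl7 through a probe above background on 5 of 12 WT arrays. In the main test Ccl7 was represented by its other probe, which was so on no WT array.

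Among the 37 genes tested, 29 were higher and 2 lower in DKO than in WT, against 21.4% of all 16427 genes called higher and 16% called lower. In Atg7 cKO 20 were higher and 2 lower than in WT, against 23.4% and 16.3% of all genes. In Nrf2 KO none was called, against 0% of all genes higher and 0.0122% lower, and 4 of the 37 had an unadjusted p under 0.05, against 606 of the 16427 genes (3.69%). DKO set directly against Atg7 cKO gave 12 higher and 0 lower, against 6.75% and 8.07% of all genes. Calls were made with limma at a Benjamini-Hochberg adjusted p under 0.05 over all genes. Over the 28 genes that WT channels alone kept, 20 were higher and 3 lower in DKO, 15 and 2 in Atg7 cKO, and 9 and 0 in the direct comparison. The median log2 ratio of the 37 genes was 0.677 in DKO and 0.272 in Atg7 cKO, against 0.005 and 0.003 over all genes, and it was 0.038 in Nrf2 KO against 0.004 over all genes. Whole liver was measured, so that fewer cells of a type and less RNA per cell cannot be told apart.

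**Figure D2:**
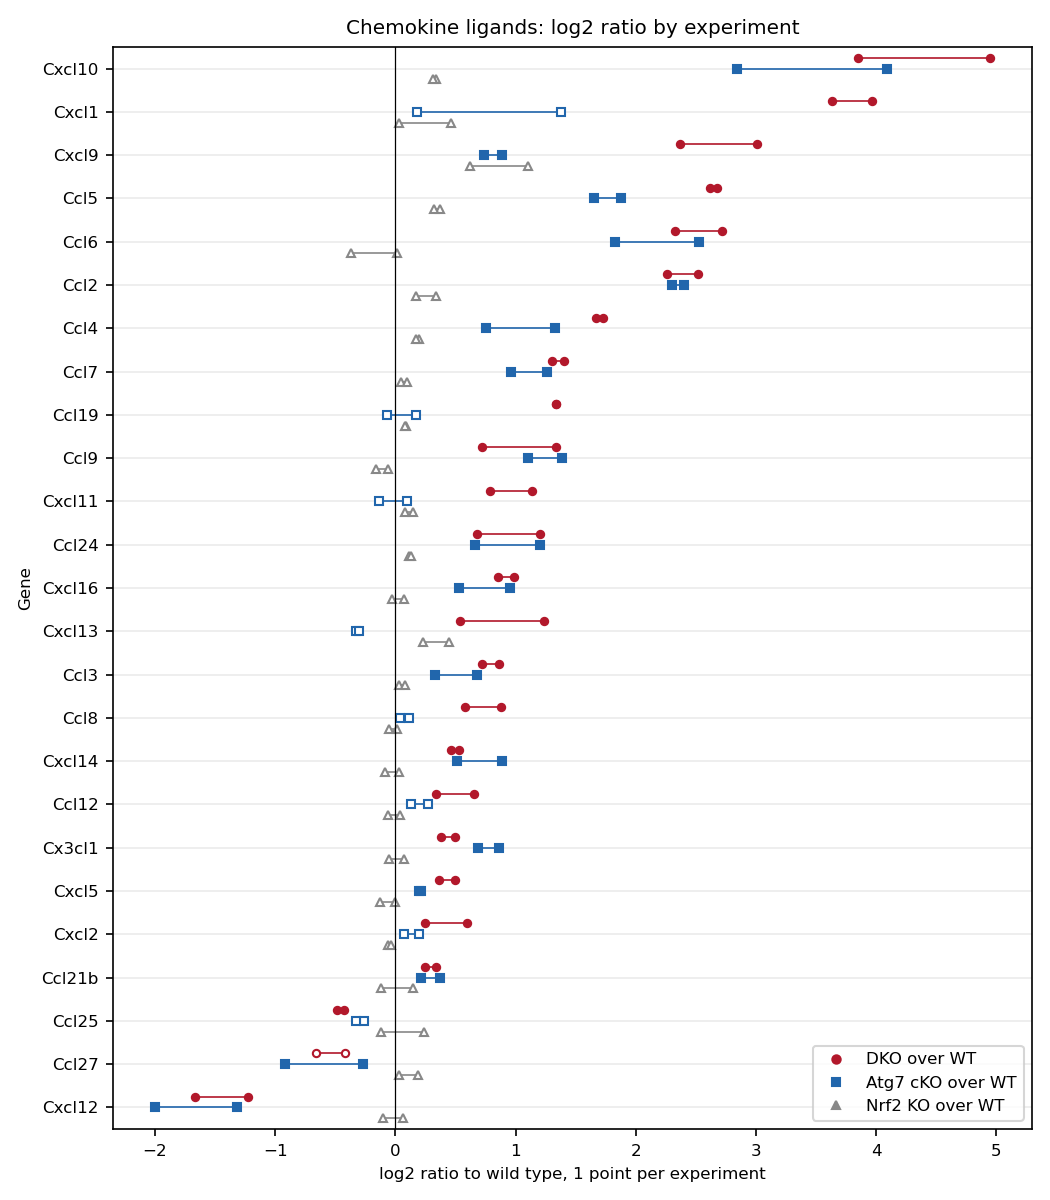
Log2 ratio to wild type (x axis) of the 25 chemokine ligands with a kept probe, 1 point per experiment, for DKO (red circles), Atg7 cKO (blue squares) and Nrf2 KO (grey triangles). Lines join the 2 experiments and filled symbols mark genes called at an adjusted p under 0.05; Cxcl10 lies highest in DKO and Atg7 cKO, Cxcl1 lies at 3.97 and 3.63 in DKO, and Cxcl12 lies lowest.

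Ratios to WT are on the scale of signals corrected with an offset of 50, which draws the log2 ratios of dim spots towards 0. The direct comparison used the authors' processed log ratios, which carry no such offset. For dim genes its values therefore run larger, and they are not set against the ratios to WT in size. Where WT was above background on no array of a comparison, the fold to WT is written as at least its value. The wording allows for a lower WT signal only, not for the spread between experiments or probes.

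The ligands of the receptor Cxcr3, which draw in activated T cells and NK cells and are induced by interferon, held the highest ratio of the family. Cxcl10 had levels of 12.04 and 11.29 (log2 intensity, experiments 3 and 6) in DKO, against 7.10 and 7.44 in WT on the same arrays. In Atg7 cKO it stood at 11.14 and 10.41, against 7.05 and 7.57 in WT, and in Nrf2 KO at 7.44 and 8.08, against 7.11 and 7.77 in WT. All levels of DKO and Atg7 cKO lay above all levels of WT. The log2 ratio of Cxcl10 was 4.40 ± 0.78 in DKO (SD, n = 2; 21.1-fold, adjusted p = 0.00134), 3.47 ± 0.89 in Atg7 cKO (11.1-fold, adjusted p = 0.00243) and 0.32 ± 0.02 in Nrf2 KO (adjusted p = 1).

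Cxcl9 had levels of 11.63 and 11.07 in DKO, against 8.61 and 8.70 in WT. It stood at 8.74 and 9.24 in Atg7 cKO, against 7.85 and 8.50 in WT, and at 9.13 and 9.04 in Nrf2 KO, against 8.03 and 8.42 in WT. The knockout level lay above that of WT on the arrays of all 6 experiments, and only the DKO levels lay apart from every other sample. Its log2 ratio was 2.69 ± 0.46 in DKO (adjusted p = 0.00092) and 0.81 ± 0.10 in Atg7 cKO (adjusted p = 0.0219), and it lost the call in Atg7 cKO without experiment 2 or experiment 5. In Nrf2 KO it was 0.86 ± 0.34 with an adjusted p of 0.909, although both experiments, at 1.10 and 0.62, were above 0. With each array entered separately, a dye effect and the experiment as a random block, Cxcl9 was called in Nrf2 KO (adjusted p = 0.00585).

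Cxcl11 rose in DKO, with log2 ratios of 1.14 and 0.79 (adjusted p = 0.00248). In Atg7 cKO its ratios were 0.10 and -0.14 and in Nrf2 KO 0.08 and 0.15, and neither was called. Of the 3 ligands, Cxcl10 and Cxcl9 thus passed the test in Atg7 cKO and Cxcl11 did not.

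**Figure D3:**
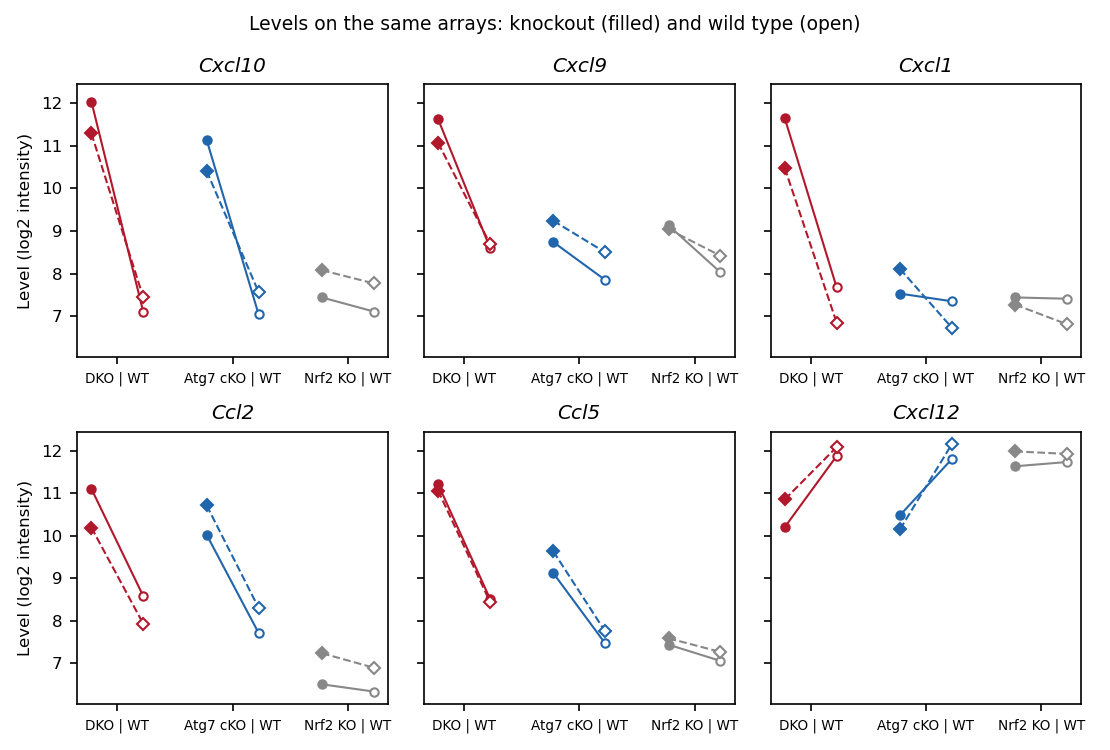
Levels (y axis, log2 intensity) of 6 chemokine genes in the knockout channels (filled) and in the wild-type channels of the same arrays (open), for DKO, Atg7 cKO and Nrf2 KO. Circles with solid lines are experiments 1 to 3 and diamonds with dashed lines experiments 4 to 6. Wild-type levels of Ccl2 and Ccl5 differ between experiments within both of these sets and are lowest on the arrays shared with Nrf2 KO. Those of Cxcl10 stay between 7.05 and 7.77.

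The neutrophil attractants Cxcl1, Cxcl2 and Cxcl5, which act through Cxcr2, were called higher in DKO. Cxcl1 had levels of 11.65 and 10.48 in DKO, against 7.68 and 6.85 in WT. It stood at 7.53 and 8.11 in Atg7 cKO, against 7.35 and 6.73 in WT, and at 7.44 and 7.27 in Nrf2 KO, against 7.41 and 6.81 in WT. The DKO levels lay apart from all others, while the remaining samples ranged from 6.73 to 8.11. Its log2 ratio was 3.80 ± 0.24 in DKO (13.9-fold, adjusted p = 0.00112). In Atg7 cKO it was 0.78 ± 0.85, from 0.18 in experiment 2 and 1.38 in experiment 5, with an adjusted p of 0.0886, and it passed the threshold with median centring, the slide as a block or a random block, and without experiment 2 (adjusted p of 0.0257, 0.0387, 0.00468 and 0.0123). Without experiment 5 it had an adjusted p of 0.564.

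Cxcl2 and Cxcl5 were dim. Cxcl2 was well above background on no WT array and its levels of 6.63 and 6.09 in DKO stood against 6.03 and 5.85 in WT (adjusted p = 0.0209). On the mean it was at least 1.34-fold higher on the offset scale, from log2 ratios of 0.60 and 0.25. Cxcl2 lost the call with the slide as a block and without experiments 1, 3 or 4. Cxcl5 had levels of 6.25 and 6.32 in DKO, against 5.89 and 5.82 in WT (adjusted p = 0.00514, at least 1.33-fold). In Atg7 cKO Cxcl5 was at least 1.11-fold higher (adjusted p = 0.0451), a call that was lost in 8 of 14 alternatives.

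The promoters of Cxcl10, Cxcl1, Cxcl2 and Ccl19 are shown. Cxcl10 and Cxcl1 were chosen for their high ratios in DKO, Ccl19 for its call in the interaction, and Cxcl2 as the neighbour of Cxcl1 that holds the same motif. Each sequence runs from 250 bases before to 50 after the annotated start, on the strand of the gene, from RefSeq (GRCm38.p6), which held promoters for 37 of the 51 genes. Capitals mark matches, on either strand, to the kappaB motif, to the ISRE motif (GAAA, any 2 bases, GAAA), to the GAS motif TTCNNNGAA or to the ARE motif TGACNNNGC, the last being the core of the sites that Nrf2 binds. Cxcl10 lies at chr5:92348840-92349139 on the minus strand, Cxcl1 at chr5:90890995-90891294 and Cxcl2 at chr5:90903649-90903948 on the plus strand, and Ccl19 at chr4:42756316-42756615 on the minus strand.
Cxcl10: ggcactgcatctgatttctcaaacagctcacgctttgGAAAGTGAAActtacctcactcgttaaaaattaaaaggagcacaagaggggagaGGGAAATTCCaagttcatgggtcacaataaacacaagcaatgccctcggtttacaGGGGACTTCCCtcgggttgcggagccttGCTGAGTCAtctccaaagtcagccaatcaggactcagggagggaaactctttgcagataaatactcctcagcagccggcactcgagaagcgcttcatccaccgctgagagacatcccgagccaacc
Cxcl1: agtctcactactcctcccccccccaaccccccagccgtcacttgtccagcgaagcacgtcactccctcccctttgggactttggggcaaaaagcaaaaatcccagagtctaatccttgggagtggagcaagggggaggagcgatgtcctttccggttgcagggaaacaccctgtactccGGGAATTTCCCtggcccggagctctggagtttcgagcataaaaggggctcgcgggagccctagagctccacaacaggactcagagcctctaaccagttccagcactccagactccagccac
Cxcl2: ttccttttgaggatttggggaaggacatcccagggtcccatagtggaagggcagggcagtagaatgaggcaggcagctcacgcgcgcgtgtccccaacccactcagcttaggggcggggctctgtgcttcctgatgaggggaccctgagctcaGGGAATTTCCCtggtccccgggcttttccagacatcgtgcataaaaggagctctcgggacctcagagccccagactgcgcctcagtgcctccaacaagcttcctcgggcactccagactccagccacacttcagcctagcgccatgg
Ccl19: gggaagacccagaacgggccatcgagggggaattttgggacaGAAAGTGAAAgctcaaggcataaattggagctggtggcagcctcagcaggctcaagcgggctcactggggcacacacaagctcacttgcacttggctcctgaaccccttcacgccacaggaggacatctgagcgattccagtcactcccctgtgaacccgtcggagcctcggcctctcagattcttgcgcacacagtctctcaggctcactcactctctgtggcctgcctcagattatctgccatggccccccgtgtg

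In the Cxcl10 promoter the capitals are, in order, an ISRE match starting 213 bases before the start, kappaB matches at 159 and 104 bases, and an ARE match on the opposite strand at 76 bases. Cxcl1 and Cxcl2 share the kappaB match GGGAATTTCCC, at 71 and 97 bases before the start, and Ccl19 holds the same ISRE match as Cxcl10, GAAAGTGAAA, at 208 bases. Matches to different motifs did not overlap in these promoters. The kappaB motif was found in 11 of 41 promoters of the family (26.8%), against 8.46% of the 32851 promoters in the table. The ISRE motif was found in 3 of 41 (7.32%, against 3.44%), the GAS motif in 4 (9.76%, against 8.3%) and the ARE motif in 3 (7.32%, against 12.4%). The Cxcl9 promoter held none of the 4. Several of the 41 promoters belong to the same gene, and these matches are letters in a window, not binding sites.

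The monocyte attractants Ccl2, Ccl7 and Ccl12, which act mainly through Ccr2, and their genomic neighbour Ccl8 fell into a pair of patterns in the main fit. Ccl2 had levels of 11.10 and 10.19 in DKO, against 8.58 and 7.93 in WT, and of 10.02 and 10.71 in Atg7 cKO, against 7.72 and 8.31 in WT. In Nrf2 KO it stood at 6.51 and 7.24, against 6.34 and 6.90 in WT. The WT level of Ccl2 thus ranged over the arrays from 6.34 to 8.58 and was lowest on the arrays shared with Nrf2 KO. Its log2 ratio was 2.39 ± 0.18 in DKO (5.24-fold, adjusted p = 0.000347) and 2.35 ± 0.07 in Atg7 cKO (5.10-fold, adjusted p = 0.000228), and the direct comparison gave 0.19 ± 0.89 (adjusted p = 0.672).

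Ccl7 was well above background on all arrays of DKO and Atg7 cKO with a probe that was so on no WT array. On this probe Ccl7 was at least 2.54-fold higher in DKO (adjusted p = 0.000751) and at least 2.16-fold higher in Atg7 cKO (adjusted p = 0.00111). Its other kept probe, above background on 5 of 12 WT arrays, gave smaller log2 ratios of 0.91 and 0.71 in DKO and of 0.42 and 0.58 in Atg7 cKO. Ccl8 was called in DKO, with log2 ratios of 0.88 and 0.58 (adjusted p = 0.00279), against 0.04 and 0.11 in Atg7 cKO (adjusted p = 0.505). Ccl12 was called in DKO at 0.65 and 0.34 (adjusted p = 0.0113), a call lost without experiment 3, and had 0.13 and 0.27 in Atg7 cKO (adjusted p = 0.128). With processed signals, which carry no offset, both were called higher in Atg7 cKO (Ccl8 0.72, adjusted p = 0.0305, and Ccl12 1.94, adjusted p = 0.0223). The random block also called Ccl12 there (adjusted p = 0.0443).

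Ccl5, Ccl3 and Ccl4, which draw in T cells and monocytes, were called in DKO and Atg7 cKO. Ccl5 had levels of 11.21 and 11.06 in DKO, against 8.52 and 8.45 in WT, and of 9.12 and 9.63 in Atg7 cKO, against 7.47 and 7.75 in WT. In Nrf2 KO it stood at 7.44 and 7.59, against 7.06 and 7.27 in WT. As with Ccl2, the WT level differed between arrays and was highest, at 8.52 and 8.45, on those shared with DKO, so that 1 WT level is not common to the comparisons. Whether the WT RNA itself differed was not tested.

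The log2 ratio of Ccl5 was 2.65 ± 0.05 in DKO (6.27-fold, adjusted p = 0.000283), 1.76 ± 0.16 in Atg7 cKO (3.40-fold, adjusted p = 0.0003) and 0.35 ± 0.04 in Nrf2 KO (adjusted p = 0.772), and the random block brought the last to an adjusted p of 0.0191. The other Ccl5 probe had 2.84 and 2.74 in DKO and 1.43 and 1.54 in Atg7 cKO. Ccl4 had log2 ratios of 1.73 and 1.67 in DKO (adjusted p = 0.00117) and of 0.75 and 1.33 in Atg7 cKO (adjusted p = 0.00399). Ccl3, well above background on no WT array of the DKO experiments, was at least 1.73-fold higher in DKO (adjusted p = 0.00329), and in Atg7 cKO it had 0.33 and 0.68 (adjusted p = 0.0115).

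Ccl6 and Ccl9, myeloid chemokines of rodents that bind Ccr1, also passed the test. Ccl6 had levels of 11.16 and 10.70 in DKO, against 8.44 and 8.37 in WT, and of 9.87 and 11.01 in Atg7 cKO, against 8.04 and 8.48 in WT. Its log2 ratio was 2.52 ± 0.27 in DKO (5.75-fold, adjusted p = 0.00117) and 2.18 ± 0.49 in Atg7 cKO (4.53-fold, adjusted p = 0.00169). Ccl9 had 1.34 and 0.72 in DKO (adjusted p = 0.00691) and 1.10 and 1.39 in Atg7 cKO (adjusted p = 0.00392), with levels between 9.64 and 9.87 in WT. Ccl24, an eosinophil attractant, had 0.68 and 1.20 in DKO and 0.66 and 1.20 in Atg7 cKO (adjusted p of 0.011 and 0.0111). In both genotypes the value of Ccl24 was the higher in the second set of experiments, and the call was lost without it (adjusted p of 0.0818 in DKO and 0.0826 in Atg7 cKO).

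Ligands known for placing lymphocytes in lymphoid tissue behaved less alike. Ccl19, which binds Ccr7, had levels of 8.76 and 8.81 in DKO, against 7.42 and 7.47 in WT, and of 7.42 and 7.31 in Atg7 cKO, against 7.25 and 7.38 in WT. Its log2 ratio was 1.34 in each of the 2 DKO experiments (2.53-fold, adjusted p = 0.000676), against 0.05 ± 0.17 in Atg7 cKO (adjusted p = 0.576) and 0.09 ± 0.01 in Nrf2 KO. The other Ccl19 probe had 1.90 and 1.95 in DKO and 0.43 and 0.29 in Atg7 cKO, and with probes averaged or with median centring Ccl19 was also called in Atg7 cKO (adjusted p of 0.0434 and 0.0142). Cxcl13, which draws in B cells, had 1.24 and 0.54 in DKO (adjusted p = 0.0122), against -0.33 and -0.30 in Atg7 cKO (adjusted p = 0.184) and 0.45 and 0.23 in Nrf2 KO (adjusted p = 1). Ccl21b, matched by accession to the gene now named Ccl21a, was higher by 0.30 in DKO and 0.29 in Atg7 cKO (adjusted p of 0.0412 and 0.0425), calls lost in 7 and 6 of 16 alternatives. The Ccl21 genes are near-identical copies, so that its signal may be shared between them. Both Ccl19 probes are placed beside the Ccl21b probe on the plus strand of mm9, whereas the Ccl19 promoter shown above lies on the minus strand. Whether the Ccl19 signal comes from more than 1 copy was not tested.

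Cxcl12, which holds leukocytes and progenitor cells in place through Cxcr4, moved the other way. It had levels of 10.20 and 10.85 in DKO, against 11.87 and 12.08 in WT, and of 10.48 and 10.15 in Atg7 cKO, against 11.80 and 12.15 in WT. Nrf2 KO stood at 11.63 and 11.98, against 11.73 and 11.92 in WT. The levels of DKO and Atg7 cKO overlapped each other and lay below all levels of Nrf2 KO and WT. The log2 ratio was -1.45 ± 0.31 in DKO (adjusted p = 0.00398) and -1.66 ± 0.48 in Atg7 cKO (adjusted p = 0.00272), and the other probe gave -1.01 and -0.83 in DKO and -0.88 and -1.25 in Atg7 cKO.

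Ccl25 and Ccl27, known as attractants of the gut and the skin, were also below WT, each called in 1 genotype. Ccl25 fell in DKO (log2 ratio -0.46, adjusted p = 0.0155) and had -0.30 in Atg7 cKO (adjusted p = 0.0526). Ccl27 fell in Atg7 cKO (-0.60, adjusted p = 0.0377) and had -0.54 in DKO (adjusted p = 0.0516). Several alternatives put the Ccl25 value of Atg7 cKO and the Ccl27 value of DKO past the threshold, and 7 of 16 took the Ccl27 call of Atg7 cKO away. Cxcl14, Cxcl16 and Cx3cl1 were higher in both genotypes. Cxcl14, an epithelial chemokine, had 0.46 and 0.53 in DKO (adjusted p = 0.0149) and 0.51 and 0.89 in Atg7 cKO (adjusted p = 0.00522). Cxcl16, the membrane-bound ligand of Cxcr6, had 0.85 and 0.99 in DKO (adjusted p = 0.00327) and 0.53 and 0.95 in Atg7 cKO (adjusted p = 0.00584). Cx3cl1, fractalkine, had 0.38 and 0.50 in DKO (adjusted p = 0.00703) and 0.69 and 0.86 in Atg7 cKO (adjusted p = 0.00155), the DKO values lying below those of Atg7 cKO, and -0.60 in the direct comparison (adjusted p = 0.203). The other Cx3cl1 probe was well above background on no array.

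**Figure D4:**
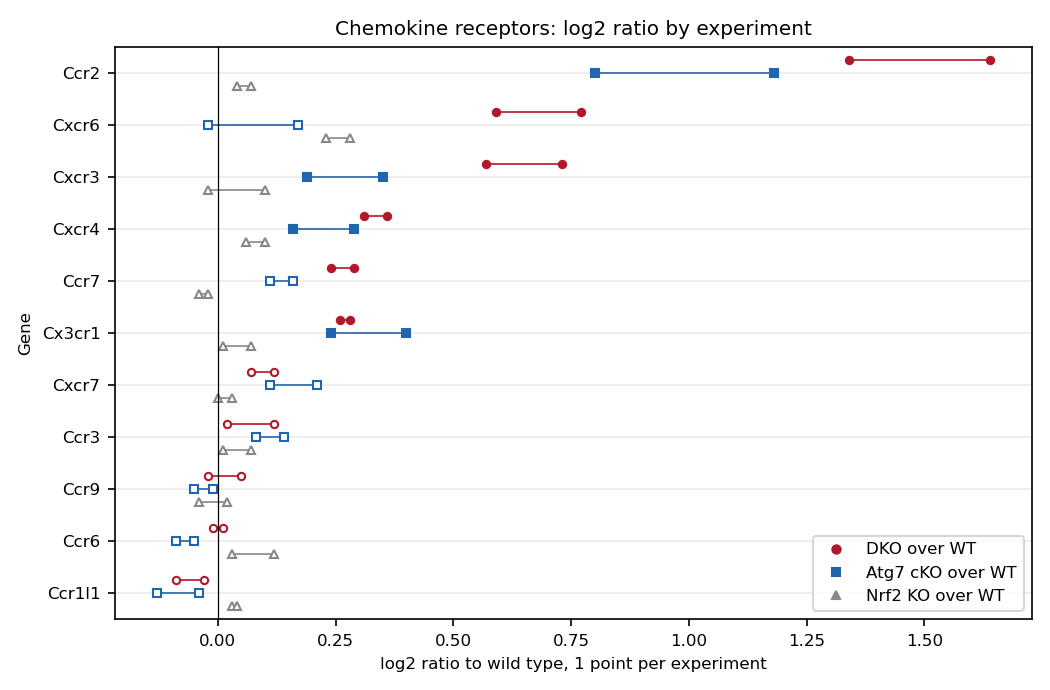
Log2 ratio to wild type (x axis) of 11 chemokine receptors with a kept probe, 1 point per experiment, for DKO (red circles), Atg7 cKO (blue squares) and Nrf2 KO (grey triangles). Filled symbols mark calls at an adjusted p under 0.05; Ccr2 lies highest, and the points of Cxcr7, Ccr3, Ccr9, Ccr6 and Ccr1l1 stay within 0.21 of 0.

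Among the receptors, 7 of 12 were called higher in DKO and 5 in Atg7 cKO, and none was called lower. Of the 8 receptors that WT channels alone kept, 3 were called higher in DKO and 2 in Atg7 cKO, against 21.4% and 23.4% of all genes in the main comparison. Ccr2, the receptor of inflammatory monocytes, had levels of 7.89 and 7.36 in DKO, against 6.25 and 6.02 in WT, and of 6.78 and 7.17 in Atg7 cKO, against 5.99 and 6.0 in WT. Its log2 ratio was 1.49 ± 0.21 in DKO (adjusted p = 0.00111). In Atg7 cKO, where no WT array was above background, Ccr2 was at least 1.98-fold higher on this probe (adjusted p = 0.00301). The other kept Ccr2 probe gave much smaller log2 ratios, of 0.25 and 0.21 in DKO and 0.01 and 0.07 in Atg7 cKO.

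Cxcr3 and Cxcr6, receptors of T cells and NK cells, had their larger ratios in DKO. Cxcr3 had 0.57 and 0.73 in DKO (adjusted p = 0.00253), against 0.19 and 0.35 in Atg7 cKO (adjusted p = 0.0314, lost in 5 of 16 alternatives). Cxcr6 had 0.77 and 0.59 in DKO (adjusted p = 0.00248), against -0.02 and 0.17 in Atg7 cKO (adjusted p = 0.463). The dim receptors Cx3cr1, Cxcr4 and Ccr7 had ratios to WT between 0.11 and 0.40. Cx3cr1 was at least 1.20-fold higher in DKO and 1.25-fold in Atg7 cKO (adjusted p of 0.0185 and 0.0107), and Ccr7 at least 1.20-fold higher in DKO (adjusted p = 0.0094). Cxcr4, the Cxcl12 receptor, had 0.36 and 0.31 in DKO (adjusted p = 0.00712) and was at least 1.16-fold higher in Atg7 cKO (adjusted p = 0.0231), a call lost in 5 of 14 alternatives. The other Cxcr4 probe, too dim to be kept, had 0.12 and 0.03 in DKO and 0.01 and 0.06 in Atg7 cKO. Cxcr7 (now Ackr3, which also binds Cxcl12), Ccr3, Ccr6, Ccr9 and Ccr1l1 were not called in any comparison with WT. In Atg7 cKO, however, Cxcr7 passed the threshold in 6 alternatives (adjusted p of 0.012 to 0.0472, against 0.0511). With processed signals Ccr1l1 passed it as lower than WT in DKO (-0.91, adjusted p = 0.0156). In Atg7 cKO, Ccr1l1 and Ccr6 passed it as lower than WT with these signals (-0.95 and -0.58, adjusted p of 0.0147 and 0.0226).

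The direct arrays set DKO against Atg7 cKO, which both carry the conditional Atg7 allele with Mx1-Cre. Atg7 itself stood at -0.03 and 1.03 in experiments 7 and 8 on its brighter probe, and at 0.82 and 0.21 on the other. Its signal was therefore not equal in the 2 genotypes in every experiment. Whether this bears on the chemokine ratios was not tested. The 12 genes called were all higher in DKO than in Atg7 cKO, namely 9 ligands and 3 receptors. Cxcl1 had log2 ratios of 4.37 and 2.58 in experiments 7 and 8 (adjusted p = 0.0138), Cxcl13 of 3.79 and 1.61 (adjusted p = 0.0361) and Ccl12 of 3.62 and 1.59 (adjusted p = 0.0363). Ccl8 had 3.31 and 1.47 (adjusted p = 0.0174), Cxcl9 2.79 and 1.86 (adjusted p = 0.00732) and Cxcl11 2.33 and 1.91 (adjusted p = 0.00819). Ccl19, Ccl5 and Cxcl5 had 1.81 and 1.95 (adjusted p = 0.0017), 1.84 and 1.29 (adjusted p = 0.00342) and 1.52 and 1.27 (adjusted p = 0.0192). The receptors were Cxcr6 at 1.42, Cxcr3 at 0.96 and Ccr9 at 0.96 (adjusted p of 0.0398, 0.0257 and 0.0334). Ccr9 was at 0.01 in DKO and -0.03 in Atg7 cKO against WT, and its direct call was lost in 10 of 15 alternatives.

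**Figure D5:**
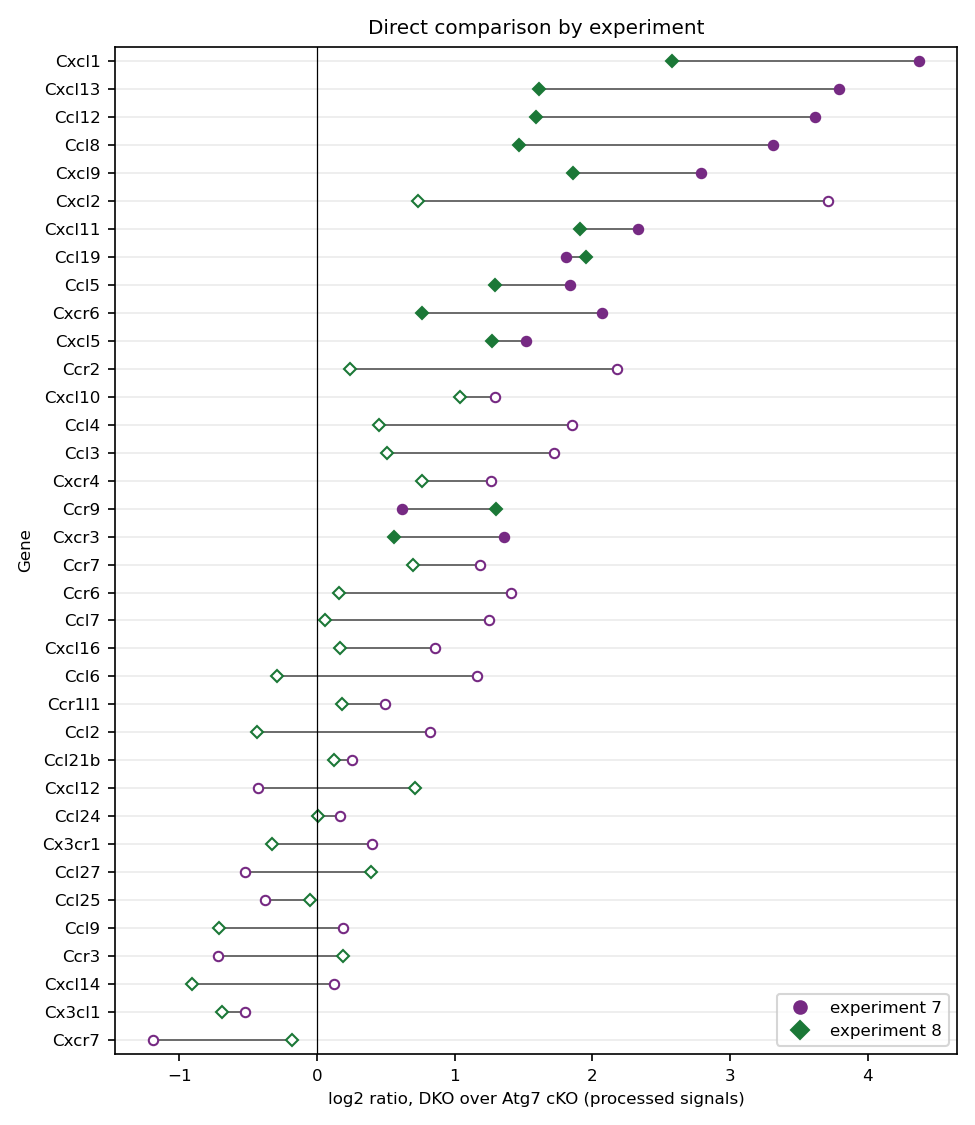
Log2 ratio of DKO over Atg7 cKO (x axis, processed signals without offset) of 36 genes on the arrays of experiment 7 (purple circles) and experiment 8 (green diamonds). Filled symbols mark the 12 genes called at an adjusted p under 0.05; most genes lie further right in experiment 7, and Ccl2, Ccl6, Ccl9 and Cxcl12, among others, lie on both sides of 0.

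Of the genes not called, 18 lay above 0 on the mean and 7 below. Cxcl2 had 3.71 and 0.73 (adjusted p = 0.0864), Ccr2 2.18 and 0.24 (adjusted p = 0.174), and Cxcl10 1.29 and 1.04 (adjusted p = 0.184). Some genes called higher or lower than WT in both genotypes had 1 direct value on either side of 0, among them Ccl2 with 0.82 and -0.44, Ccl6 with 1.16 and -0.29, Ccl9 with 0.19 and -0.71 and Cxcl12 with -0.43 and 0.71. The median over the 37 genes was 0.939, against 0.008 over all genes. The direct calls rested on experiment 7: without it 2 remained (Ccl19 and Ccl5), without experiment 1 or 4 there were 7, and with experiments 7 and 8 fitted alone there were 0, with 17 of the 37 at an unadjusted p under 0.05, against 22.6% of all genes.

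Through WT, in experiments 1 to 6, the difference between DKO and Atg7 cKO was called for 7 genes, all higher in DKO. On the offset scale these were Cxcl1 (3.02, adjusted p = 0.0273), Cxcl9 (1.88, adjusted p = 0.0284), Ccl19 (1.29, adjusted p = 0.00804), Cxcl11 (0.99, adjusted p = 0.0319), Ccl5 (0.88, adjusted p = 0.0171), Ccl8 (0.65, adjusted p = 0.0447) and Cxcr6 (0.60, adjusted p = 0.0413). The interaction asks whether DKO departs from the sum of the log2 changes of Atg7 cKO and Nrf2 KO. Ccl19 alone was called higher, at 1.20 (adjusted p = 0.0357), against 0.14% of all genes called higher and 0.609% lower. Its call was lost in 7 of 16 alternatives, over which its adjusted p ranged from 7.3e-05 to 0.252. Cxcl1 followed at 2.77 (adjusted p = 0.102), Cxcl11 at 0.87 (adjusted p = 0.127) and Ccl8 at 0.67 (adjusted p = 0.134).

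In Nrf2 KO the ratios of the 37 genes ran from -0.18 to 0.86. After Cxcl9, the furthest from 0 were Ccl5 at 0.35, Cxcl13 at 0.34 and Cxcl10 at 0.32, each above 0 in both experiments, and none passed the threshold. Ccl2 and Cxcl1 both stood at 0.25, and Cxcr6 at 0.25.

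Many members lie next to each other in the genome (mm9 positions of the probes, neighbours within 500 kb). On chromosome 11, Ccl2, Ccl7, Ccl11, Ccl12, Ccl8 and Ccl1 span chr11:81850650-81990395. Ccl2 and Ccl7 were called higher in both genotypes, Ccl7 with a probe that was well above background on no WT array. Ccl8 and Ccl12 were called in DKO, but passed the filter only through knockout channels. The neighbouring Ccl5, Ccl9, Ccl6, Ccl3 and Ccl4 (chr11:83339296-83478111) were called higher in both genotypes, although Ccl3 passed the filter only through knockout channels. On chromosome 5, Cxcl5, Cxcl3, Cxcl15, Cxcl1 and Cxcl2 (chr5:91190205-91334593) held Cxcl1, which was called in DKO, and Cxcl2 and Cxcl5, which passed the filter only through knockout channels. Cxcl9, Cxcl10 and Cxcl11 (chr5:92752191-92790274) gave 3 of 3 in DKO and 2 in Atg7 cKO.

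Related genes outside the name rule were counted from lists drawn up with earlier results of these data known. Of 8 measurable chemokines and receptors with other names, 4 were called higher in DKO and 2 in Atg7 cKO, and 3 in the direct comparison. Over all genes, 21.4% were called higher in DKO, 23.4% in Atg7 cKO and 6.75% in the direct comparison. They include Ccrl2, an atypical receptor that presents chemerin (1.16 in DKO, adjusted p = 0.000832, and 0.35 in Atg7 cKO, adjusted p = 0.0193), and Ppbp, a platelet chemokine (0.94 in DKO, adjusted p = 0.00317, and 0.14 in Atg7 cKO, adjusted p = 0.343). Pf4, platelet factor 4, had 0.93 in DKO and 0.79 in Atg7 cKO (adjusted p of 0.00154 and 0.00227). Il8rb, the array's name for Cxcr2, had 0.33 in DKO (adjusted p = 0.0147) and 0.13 in Atg7 cKO (adjusted p = 0.157).

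Of 10 measurable genes that carry the signal of chemokine receptors, 10 were called higher in DKO and 10 in Atg7 cKO, with median log2 ratios of 0.90 and 0.69, and 0 in the direct comparison. An example is the GTPase Rac2 (1.49 in DKO and 1.12 in Atg7 cKO, adjusted p of 0.000722 and 0.00115). Of 15 inducers of chemokine genes, 13 were called higher in DKO, 10 in Atg7 cKO and 6 directly. Beside both lists, the shares of all genes called higher were 21.4% in DKO, 23.4% in Atg7 cKO and 6.75% directly. Irf1, an interferon-induced transcription factor, had 2.06 in DKO and 0.60 in Atg7 cKO (adjusted p of 0.000932 and 0.0256). Irf7 had 1.55 in DKO and 1.41 in Atg7 cKO (adjusted p of 0.000676 and 0.000759), and Tlr2, a receptor for bacterial lipoproteins, had 2.37 and 1.84 (adjusted p of 0.000751 and 0.00123). None of these lists had a call in Nrf2 KO.

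Many markers of leukocytes were called higher in the genotypes where chemokine genes were, and their part in the results was not tested. Over all genes, 21.4% were called higher in DKO, 23.4% in Atg7 cKO and 6.75% directly. Called lower were 16% in DKO and 16.3% in Atg7 cKO. The smaller lists hold too few genes to be set against these shares. Of 11 macrophage and Kupffer cell markers, 11 were called higher in DKO (log2 ratios 0.23 to 4.43) and 9 in Atg7 cKO (-0.43 to 3.34). Directly, 2 were called, Marco and Timd4. Of 6 measurable neutrophil markers, 4 were called in DKO (0.24 to 3.27) and 2 in Atg7 cKO (0.08 to 1.33), with S100a9 at 3.27 and 1.33. Of 11 T and NK cell markers, 7 were called in DKO, 4 in Atg7 cKO and 7 directly, and Cd3e and Cd4, named after their values were seen, were not called in any comparison. Of 7 stellate cell markers 4 were called higher in either genotype, and of 7 endothelial markers 1 was called higher and 3 lower in DKO, and 2 higher in Atg7 cKO. Of 5 cholangiocyte markers, 2 were called higher in either genotype. B cell markers had 1 call of 4 in DKO and 2 in Atg7 cKO, and dendritic cell markers 1 of 2 in either. Of 6 hepatocyte markers 4 were called lower in DKO and 5 in Atg7 cKO, with albumin at -1.41 in either. In Nrf2 KO no marker was called.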

How the data were processed

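RNA of mouse livers was hybridised in pairs on 2-colour Agilent arrays, 2 dye-swapped arrays per experiment, 8 experiments and 16 arrays. Scans were read with Feature Extraction, version 9.5.1.1 per the file headers and written 9.5.1 in the submitters' own processing notes, and probe positions are on mm9. The scanner files of experiments 1 to 6 hold spot intensity values as deposited, and the deposited value table holds log10 ratios of all 8, which differed from the scanner files' log10 ratios of red (Cy5) over green (Cy3), where both exist, by less than 0.005. Every column of that table has a median of 0.

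Mean signals and local backgrounds were corrected by normexp (offset 50) and loess within each array (limma 3.58.1, R 4.3.3), control and outlier spots were left out, and ratios were turned to DKO or knockout over its partner. Probes with 4 or more of 24 channels well above background were kept, and the brightest kept probe stood for a gene. Comparisons with WT and the interaction came from 1 limma fit of experiments 1 to 6 (residual df 3, prior df 2.21). The direct comparison came from a fit of all 8 experiments on the value table turned to log2 (residual df 4, prior df 2.13), since no scanner files of experiments 7 and 8 were used here. P-values were adjusted by Benjamini-Hochberg over 16427 genes, threshold 0.05. The scripts were tested on simulated data.

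Over the 12 arrays with scanner files, 43.42% to 57.19% of spots were well above background, with at most 1 saturated spot. The precision is limited by the number of experiments, 2 per comparison. Where WT was above background on no array of a comparison, the fold is given as a bound. It sets the mean level of the knockout against the higher, per array, of the WT level and the lowest signal well above background. For Ccl7 and Cxcl2 in DKO the bound equalled the fold of the mean log2 ratio (2.54 and 1.34). It allows for a lower WT signal only, and single experiments or other probes can lie below it. Genes called in any comparison were named with values, those not called only by count and range, and up to 5 called genes per list. Members and lists were chosen with earlier results of these data known. Alternatives were other signals, centring, filters, probe summaries and blocks, and leaving out each experiment. Some genes are counted but not reported here by name.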

Additional observations from a re-analysis of the deposited data

Results flagged for a closer look

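The WT levels of Ccl8 and Ccr2 each held a sample far from the other 5. The highest level of Ccl8, 6.21 in the WT channels of experiment 3, lay apart from the rest by a gap of 0.797 of the whole range, and that of Ccr2, 6.25 in the same experiment, by 0.818 (the critical value is 0.625). Chance flags about 1 in 20 such groups. Both genes are dim in WT.

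In the main fit the effect of Atg7 loss on Ccl19 differed with and without Nrf2, by 1.20 on the log2 scale (limma adjusted p = 0.0357). This call was lost in 7 of 16 alternatives, among them processed signals, median centring and the slide as a block. The value ranged from 1.05 to 1.58 over the alternatives.

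Among genes without a kept probe, signals well above background appeared on DKO arrays and on no WT array for Ccl17 (2 of 4 arrays), Ccl20 (2 of 4) and Cxcl3 (1 of 4).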

How the results depend on the processing

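Each ratio pairs a knockout with its partner on the same arrays. The experiment numbers 1 to 8 are not shared between groups, so the main fit did not match the groups to each other. Some alternatives matched them by blocks. With experiments 1 to 3 against 4 to 6 as a block, 32 genes were called in DKO and 23 in Atg7 cKO, and with the slide as a block 29 and 21. Below, a call counts as kept in every alternative if no alternative that tested the gene lost it. Some filters left genes out. Among the genes so counted, Ccl3, Cxcl5, Ccl8 and Ccr2 in DKO were tested in only 14 or 15 of 16 alternatives. The same holds for Ccr2 in Atg7 cKO, with 15. DKO against WT had 31 calls, 23 to 31 when an experiment was left out and 23 to 32 otherwise, and 21 of the 31 genes kept their call in every alternative. Against WT, Atg7 cKO had 22 calls, 17 to 28 under other settings and 13 to 20 with an experiment left out (13 without experiment 5), and 13 of the 22 genes kept their call throughout. Nrf2 KO had 0 calls under every setting except the dye effect with experiment as a random block, which gave 2. That fit enters the 2 arrays of a dye swap separately. With each experiment left out in turn, 2 to 5 genes had an unadjusted p under 0.05 (2.2% to 4.55% of all genes), and 4 to 7 did under the other settings (3.63% to 6.84% of all genes).

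The direct comparison depended most on the processing. Its 12 calls became 5 with no filter on dim probes, 7 through WT in experiments 1 to 6 and 0 with experiments 7 and 8 alone, where fewer samples estimate the spread. Leaving out an experiment gave 2 to 14. No direct call held in every alternative, and 2 were lost only with experiments 7 and 8 alone. The interaction had 1 call. It had 0 with processed signals, with median centring or with the slide as a block, 2 with the mean of all probes, 7 with the random block, and 0 to 2 with an experiment left out. Apart from the settings whose construction shows it, the cause was not tested. No called gene changed sign in any alternative that tested it. With 2 experiments per comparison and many chemokine genes near background, small differences between genotypes could not be resolved.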
